A study of Mus musculus with 16 samples.

Results

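CD45 marks cells of the blood lineage, and the CD45 fraction of mouse femur is compared here with the other 7 sorted fractions of mouse femur. It is represented by 2 of 16 libraries, CD45 replicate 1 and CD45 replicate 2, chosen by the subset name in their labels. The other 14 libraries are replicates 1 and 2 of CD105, CD24, CD29, CD24_CD29, Thy, 6C3 and Thy_6C3, named after the surface markers in their labels. Every library came from femurs of mice aged 3 months that were homozygous for PolG D257A (PolG D257A/D257A), so all groups carry the mutator allele and the comparison holds no wild-type control. Femurs were broken up mechanically and enzymatically, cells were sorted by flow cytometry, and their DNA was tagged with Tn5 transposase for ATAC-seq, which reads accessible DNA and covers mitochondrial DNA deeply. All 16 libraries, CD45 included, carry the same general cell type label, skeletal cells. Gates are not in the labels, and neither are the mice that a library came from. A p-value below is therefore a statement on the scatter of the libraries, part of which may be technical. The defining gene of the fraction, Ptprc, is nuclear and cannot be read from tables of mitochondrial positions, so the identity of the CD45 libraries rests on their labels.

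PolG is the polymerase that copies mitochondrial DNA, and D257A takes away its proofreading, so that copying errors build up. A cell holds many copies of this genome, and a mutation is therefore present in a share of the copies, which can drift as cells divide. Blood cells descend from hematopoietic stem cells, whereas bone, cartilage and stromal cells descend from skeletal stem and progenitor cells.

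The measured unit is an allele, which is a mitochondrial position with 1 of its 3 non-reference bases. Its fraction is the count of that base divided by the coverage of the position. An allele was counted in a library when its fraction was 1% or more, with at least 5 counts. A name such as G3079A starts with the base of the reference, goes on with the position (from 1, on the mitochondrial chromosome MT of GRCm38) and ends with the allele's base. An allele is called widespread for a library when it was counted in all the other 7 libraries of the same replicate number, a choice that does not use the library itself. A private allele was counted in a library and in no other of its number. All comparisons were made between CD45 and the other 7 libraries of the same number.

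Mean coverage was 25511 in CD45 replicate 1 and 13931 in CD45 replicate 2, the 5th and 7th deepest of the 8 libraries of their number, over a range of 6569 to 77252 in all 16. A count of 0 at mean coverage allows a fraction of up to 0.0118% and 0.0215% in the CD45 libraries. One library outside CD45 stood apart: Thy replicate 2 held 2530 counted alleles and a load of 1.11%, so results are also given without Thy where that changes them. These limits, and the intervals given for single alleles, account for counting error alone, because the reads have no molecular identifiers.

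The following stretches show the sites on which the CD45 results turn, each with 10 reference bases on either side and the changed base in capitals, read 5′ to 3′ along the deposited reference. The first 3 are among the highest alleles of CD45. The next 4 are C7533T and C2929T, which are private alleles of CD45 and among the 5 with the smallest p, and T15014C and T16105A, which were above all other subsets in both numbers. The last is the only widespread allele that was not counted in CD45.
G3079A: gcaacatctaGcctatcagtt
C11959T: accataaattCaatagaactt
C1051T: attaaagcatCtggcctacac
C7533T: aaaactgatgCcatcccaggc
T15014C: aactaggaggTgtcctagcct
C2929T: ataaaagaacCaatacgccct
T16105A: ccccacccccTcctcttaatg
T6754G: tgagaggcctTtgcttcaaaa

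CD45 cells carried nearly the same widespread mitochondrial alleles as the skeletal subsets. In replicate 1, 53 alleles were counted in all the other 7 libraries, and all 53 were also counted in CD45. In replicate 2 there were 60 such alleles, and 59 of them were counted in CD45. The carried share was therefore 100% and 98.3%, against means of 97.4% ± 2.27 and 97.2% ± 2.19 (SD, n = 7) for the other libraries measured the same way. The difference was 1.85 percentage points, and 1.11 to 2.88 with single libraries left out, the lowest without CD45 replicate 1 and the highest without Thy_6C3 replicate 1 (exact permutation p = 0.391, two-sided over 64 assignments, where the smallest possible p is 0.0156). Benjamini-Hochberg adjustment over the 9 measures compared in this way gave 0.502. Both lists hold the same 24 alleles that were counted in all 16 libraries, of which 3 were transitions. That part of each list was common to every subset and both numbers.

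The exception was T6754G, which changes phenylalanine to cysteine in COX1 (F476C), the catalytic subunit of cytochrome c oxidase. In replicate 2 its fraction was 0.940% in CD45, with a 95% exact interval of 0.796% to 1.1%, and 1.07% to 2.54% in the other 7. CD45 lay below all of them, but its interval reaches over the 1% threshold. In replicate 1 the order was different, with 1.75% in CD45, second highest of 8, and 0.641% to 2.05% in the others.

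The highest alleles of CD45 were also the highest of its neighbours. G3079A changes serine to asparagine in ND1 (S110N; ND1 spans 2751 to 3707), a membrane subunit of respiratory complex I. In replicate 1 it stood at 21.1% in CD45, and at 15.6% in Thy, 16.2% in 6C3, 16.4% in Thy_6C3, 19.1% in CD105, 16.9% in CD24, 20.4% in CD24_CD29 and 17% in CD29. CD45 was the highest of the 8, with CD24_CD29 and CD105 next to it. C10658T, a synonymous change in the complex I gene ND4 (L164L), was at 19.8% in CD45 and 16% to 21.7% in the others. C7953T lies where ATP8 and ATP6, subunits of ATP synthase, overlap, and changes ATP8 (S63L) but not ATP6 (F9F). It was at 11.4% in CD45, inside the 7.60% to 14.1% of the others.

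In replicate 2 the leading allele was C11959T, which changes serine to leucine in the complex I subunit ND5 (S73L; ND5 spans 11742 to 13565). Its fraction was 23.5% in CD45, 21.0% in Thy, 24.9% in 6C3, 18.4% in Thy_6C3, 23.1% in CD105, 23.1% in CD24, 23.1% in CD24_CD29 and 21.9% in CD29. CD45 was inside this range, below 6C3 alone. C1051T, in the gene of the valine transfer RNA (TrnV, 1025 to 1093), was at 15.6% in CD45, against 9.81% to 17.9% in the others. C609T in the small ribosomal RNA gene mt-Rnr1 was at 7.33% in CD45, against 4.90% to 7.89%.

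Most of these leading alleles were high in CD45 of one replicate number and low in CD45 of the other. C11959T was at 0.121% in CD45 replicate 1, and C1051T at 0.0743%. In the other direction, G3079A was at 0.271% and C10658T at 0.401% in CD45 replicate 2. C7953T was the exception, at 2.04% in CD45 replicate 2, inside the 1.05% to 2.51% of the others. A number-specific allele was counted in all the other 7 libraries of one number and in none of the 8 of the other, so its low CD45 fraction there follows from the choice. For CD45 replicate 1 there were 21, with a median of 0.198% in CD45 replicate 2 and a highest value of 0.575%. For CD45 replicate 2 there were 30, with a median of 0.177% in CD45 replicate 1 and a highest value of 0.698%. All 21 and all 30 were counted in the CD45 library of their own number.

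C7166T and C14024T were high in CD45 of both numbers. C7166T changes histidine to tyrosine in COX2 (H52Y), which carries electrons into cytochrome c oxidase, and stood at 8.04% and 5.75% in CD45. The other 7 libraries ran from 7.38% to 11.3% in replicate 1 and from 5.53% to 7.92% in replicate 2. C14024T changes cysteine to tyrosine in the complex I subunit ND6 (C16Y), and stood at 5.05% and 9.13% in CD45. Its ranges in the others were 3.74% to 7.49% and 7.27% to 10.5%, so that CD45 was inside the range in both numbers for both alleles. T16133A, which lies in no gene, was at 5.01% and 5.04% in CD45. The others ran from 3.91% to 5.62% and from 3.65% to 5.14% for it.

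**Figure D1:**
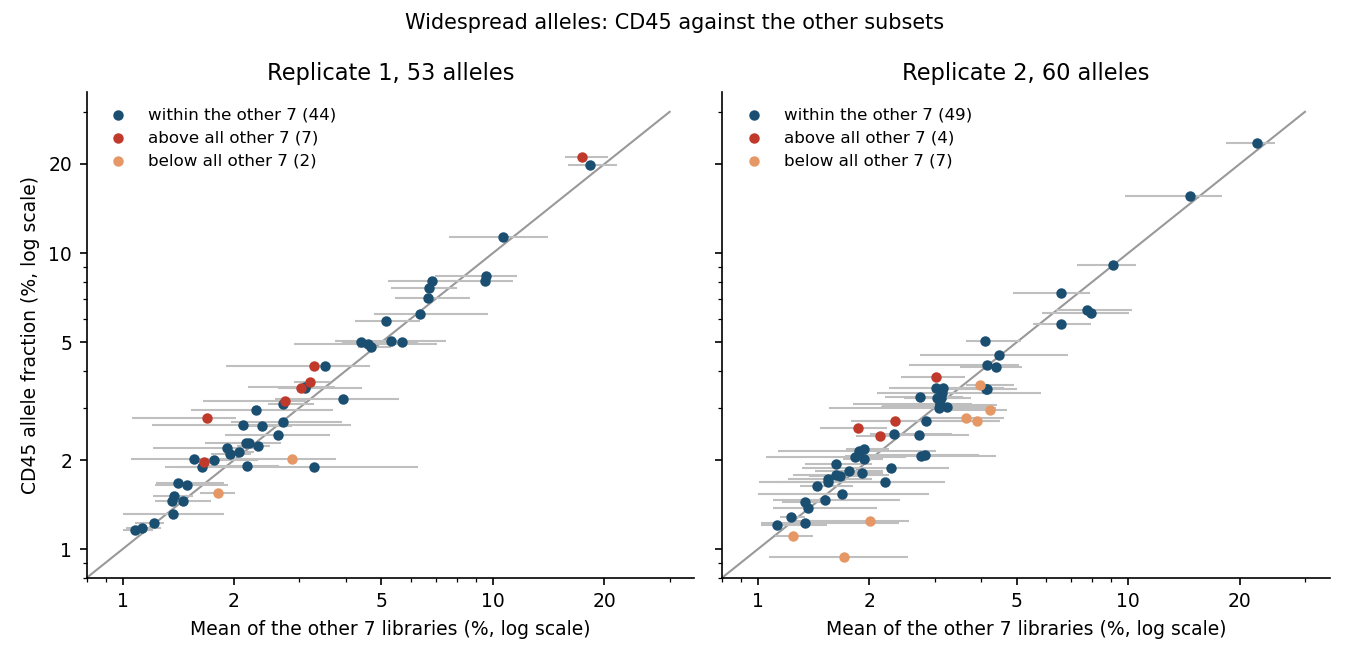
Allele fraction in CD45 (vertical, %, log scale) against the mean of its 7 neighbours with the same number (horizontal, %, log scale) for widespread alleles, with grey bars from the lowest to the highest of the 7 and a line of equality. Most alleles lie within the range of the others, with 7 above and 2 below it in replicate 1 and 4 above and 7 below it in replicate 2.

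The level of the widespread alleles was the measure in which CD45 stood farthest from the rest, but it did not pass adjustment. For each library the level is the median over its widespread alleles of the log2 ratio of its fraction to the geometric mean of the other 7. It was 0.13 in CD45 replicate 1 and 0.058 in CD45 replicate 2, ranking 1st and 2nd of 8. The other 7 libraries ran from -0.078 to 0.038 in replicate 1 and from -0.067 to 0.088 in replicate 2, where CD24 was above CD45. CD45 thus lay outside the range of the others in replicate 1 and inside it in replicate 2. In CD45, 40 of 53 and 36 of 60 widespread alleles were above the mean of the others, and 46 of 53 and 51 of 60 were within 25% of it. The mean difference was 0.11 on the log2 scale (exact permutation p = 0.0313, two-sided), and the p adjusted over the 9 measures was 0.281. At a counting threshold of 0.5% the difference was 0.022 (exact permutation p = 0.75).

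Across widespread alleles the CD45 fractions followed the mean of the others closely, with Pearson's r of 0.981 over 53 alleles and 0.977 over 60. These are correlations over alleles that share libraries and depth, and they carry no test. The distance of CD45 from the mean of the other 7, as a root mean square difference of arcsine square root fractions, was 0.0161 and 0.0147. The other libraries ran from 0.0107 to 0.0295 in replicate 1 and from 0.0151 to 0.0309 in replicate 2. CD45 ranked 6th and 8th from the most distant, so that in replicate 2 it was the nearest of all 8 to the rest. The mean difference from the others was not larger than their scatter (exact permutation p = 0.328, adjusted 0.502).

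Single widespread alleles left the range of the other 7 in both directions, as they did in most libraries. In replicate 1, 13.2% were above and 3.77% below in CD45. Taken the same way, the others had 0% (6C3) to 30.4% (CD24) above and 7.41% (CD105) to 26.8% (CD24_CD29) below. In replicate 2 CD45 had 6.67% above and 11.7% below. The others had 1.67% (CD105) to 24.6% (CD24) above and 10% (6C3) to 20.6% (CD24_CD29) below. The alleles are named as a description. Those above it in replicate 1 included T8300C (L125P in ATP6) at 2.78%, against 1.06% to 2.02%, and C12066T (H109Y in ND5) at 4.16%, against 1.90% to 4.06%. The other alleles above it were G3079A, C954A in mt-Rnr1, and T16105A, T16108A and T16114A in the control region, the stretch that holds the signals for transcription and for heavy-strand replication. Below the range lay C635T in mt-Rnr1, at 2.02% against 2.09% to 3.77%, and A7024C, a synonymous change in COX2, at 1.55% against 1.62% to 2.01%. In replicate 2 the alleles above were C5498T, a synonymous change in COX1, at 2.56% against 1.47% to 2.24%, and T16105A, T16110A and C16130A in the control region. Those below were T6754G, G5840A, T6962A, C7893T, T10913G, C13241A and T16105G. C7893T (T43M in ATP8) was at 2.71%, against 3.10% to 4.49%, and G5840A, a synonymous change in COX1, at 2.95%, against 3.34% to 4.71%. T16105A was the only allele above the range in both numbers, and no allele was below it in both.

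Of the alleles that were widespread for CD45 in both numbers, most lay close together in the control region. There were 24, of which 3 were transitions, and 17 of the 24 lay between positions 16099 and 16150, within the control region from 15423 to 16299 that makes up 5.38% of positions. The grouping below was made after the values were seen and carries no test. The stretch with the changed positions in capitals, 15 positions for 17 alleles, runs from 16094 to 16155, and its last changed position is 149 bases from the end of the numbered sequence.
control region 16094 to 16155: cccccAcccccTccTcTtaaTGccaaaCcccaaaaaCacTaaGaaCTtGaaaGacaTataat

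In CD45, 15 of these 17 alleles were above the geometric mean of the other 7 in both numbers. Among the 7 elsewhere, 2 were above it in both, A315C in mt-Rnr1 and C7953T in ATP8 and ATP6. Over all 24 alleles, 17 were above in both numbers and 2 below in both, A7024C and C7166T in COX2. The log2 ratios of the 2 numbers had a Pearson's r of 0.36 over the 24 alleles, many of which are neighbours read by the same fragments.

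Summed over the 17 alleles, the fraction was 45.1% in CD45 replicate 1 and 43.6% in CD45 replicate 2. In replicate 1 the others held 40.2% in Thy, 38.6% in 6C3, 39.0% in Thy_6C3, 39.4% in CD105, 46.9% in CD24, 42.5% in CD24_CD29 and 37.9% in CD29. In replicate 2 they held 44.9% in Thy, 41.4% in 6C3, 40.4% in Thy_6C3, 36.8% in CD105, 46.1% in CD24, 36.1% in CD24_CD29 and 34.6% in CD29. CD45 ranked 2nd and 3rd, and CD24 was the highest in both numbers. Without control-region alleles the level difference of the widespread alleles was 0.048 on the log2 scale (exact permutation p = 0.391), and with transitions only it was 0.085 (exact permutation p = 0.219). Both settings were chosen after the values were seen.

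The number-specific alleles differed between the 2 CD45 libraries. In replicate 1, 16 of 21 were above the mean of the other 7, with a median log2 ratio of 0.18. In replicate 2, 15 of 30 were above it, with a median of 0.0044. Transitions made up 17 of the 21 and 24 of the 30.

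**Figure D2:**
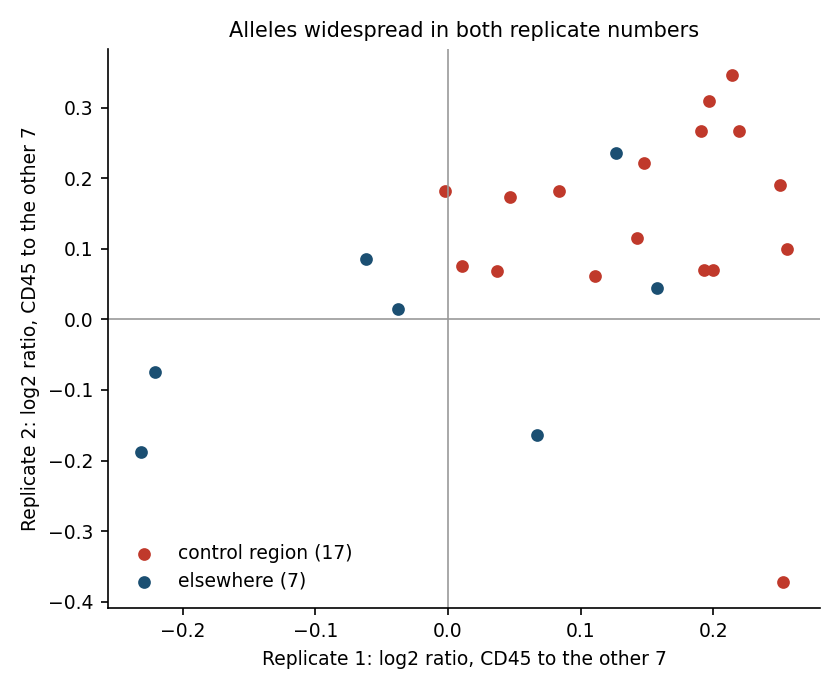
Log2 ratio of the CD45 fraction to the geometric mean of the other 7 libraries in replicate 1 (horizontal) and replicate 2 (vertical), one point per allele widespread in both numbers, with the control region in red and other regions in blue. Of the 17 control-region alleles 15 lie above 0 on both axes, against 2 of 7 elsewhere.

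Allele by allele, edgeR's quasi-likelihood test called 0 of 3487 tested alleles between CD45 and the mean of the other 7 subsets. The share called was 0% in the direction of higher and 0% in the direction of lower CD45 fractions, at a Benjamini-Hochberg adjusted p under 0.05. At an unadjusted p under 0.05 edgeR gave 9 of the 3487 alleles, 5 higher and 4 lower. DESeq2 also called 0, with 13 of 3487 at that unadjusted level. Both shares are below the level of 0.05 itself, so the tests were strict here. The 0 calls therefore do not show that the fractions were equal. The lowest adjusted p in edgeR was 1.0.

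The 5 alleles with the smallest edgeR p were all C>T changes. C7533T (A174V in COX2) was at 1.1% in CD45 replicate 1 and 0.279% in CD45 replicate 2. The others held 0.00907% to 0.498% in replicate 1 and 0.0181% to 0.828% in replicate 2, so CD45 was above all of them in replicate 1 and inside their range in replicate 2. C7533T was tested only because CD45 replicate 1 reached 1%, and C2929T only because CD45 replicate 2 did, so their higher CD45 values follow in part from the filter and are given as a description. C13084T (P448L in ND5) was at 0.483% and 0.902% in CD45, above all others in replicate 1 and below Thy, at 1.01%, in replicate 2. C2929T (P60L in ND1) was at 0.392% and 1.12%, and C9395T in TrnG, the glycine transfer RNA gene, at 1.1% and 0.0458%. For C2929T, CD45 ranked 4th in replicate 1, inside the 0.186% to 0.470% of the others, and was above all of them in replicate 2. For C9395T, CD45 was just above CD24_CD29, at 1.09%, in replicate 1. In replicate 2 CD45 was inside the range of the others, 0.00459% to 0.114%. C3313T (S188L in ND1) was the one that was lower in CD45, at 0.109% and 0.0715%, against 0.159% to 0.982% and 0.0515% to 1.06%. None of the 5 was called with any of the 16 libraries left out, but the size of C7533T and C2929T rested on 1 CD45 library each. The log2 odds ratio of C7533T was 1.85 with all libraries, 0.72 without CD45 replicate 1 and 2.90 without CD45 replicate 2. That of C2929T was 1.28 with all libraries, 2.1 without CD45 replicate 1 and 0.46 without CD45 replicate 2.

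Alleles beyond all the other 7 libraries in both numbers were few in CD45. Above all 7 in both numbers stood 2 of 3487 tested alleles, 0.0574%, and below all 7 stood 24, 0.688%. Taken in the same way, the other subsets had from 1 allele above in CD105 to 459 in Thy, and from 8 below in Thy to 195 in CD24. With Thy included, CD45 was within the span of the other subsets in both directions. Without the Thy subset, CD45 had 3 above and 12 below of 1098 tested, 0.273% and 1.09%. The other 6 subsets then had from 4 above in CD105 to 118 in CD24_CD29, and from 1 below in 6C3 to 79 in CD24_CD29. An allele is tested when any 1 library reaches 1%, so a subset with many private alleles brings its own into the count above. CD45 and CD105 had few private alleles and CD24_CD29 many. The order of the counts above therefore follows in part from the filter, and the low count of CD45 is not read as a trait of its own.

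The 2 alleles above were T16105A and T15014C. T16105A was at 3.51% and 3.81% in CD45, against highest values of 3.51% and 3.62% in the others, so that in replicate 1 the value of CD24_CD29 lay inside the counting interval of CD45, 3.23% to 3.8%. In replicate 2 the interval of 3.41% to 4.24% covered CD24, at 3.62%, and Thy_6C3, at 3.43%. T16105G, at the same position, was at 4.17% in CD45 replicate 1, inside the 3.19% to 4.66% of the others. In replicate 2 T16105G was at 2.78% in CD45, below the 2.85% to 4.62% of the others. T15014C is a synonymous change (G290G) in CYTB, the mitochondrial subunit of respiratory complex III (14145 to 15288). Its fraction in replicate 2 was 1.44% in CD45, with a 95% exact interval of 1.27% to 1.62%, and 0.588% in Thy, 0.688% in 6C3, 0.367% in Thy_6C3, 0.570% in CD105, 0.802% in CD24, 0.517% in CD24_CD29 and 0.689% in CD29. CD45 was above the other 7 there. T15014C was tested only because CD45 replicate 2 reached 1%, so that position follows in part from the filter and is given as a description. In replicate 1 the fraction of T15014C was 0.526% in CD45, next to 0.512% in CD24, and 0.0278% to 0.458% in the rest.

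Of the 24 alleles below, most were low in both CD45 libraries and reached 1% in a single other library. The 5 with the largest mean difference were T6496C (M390T in COX1), T3275C (a synonymous change in ND1), T10046C (M57T in the complex I subunit ND4L), A16065C in the control region and T2538G in mt-Rnr2, which encodes the large ribosomal RNA. T6496C was at 0.0969% and 0.757% in CD45, against 0.171% to 0.568% and 0.926% to 3.19% in the others. A16065C was at 0.689% and 0.660%, against 0.807% to 1.09% and 0.741% to 2.33%. For T10046C the values were 0.249% and 0.206%, next to lowest values of 0.256% and 0.220% in the others, so the gap was small in both numbers.

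CD45 had few private alleles. Of 121 counted alleles in replicate 1, 53 were in all the other 7 libraries, 63 in 1 to 6 of them and 5 in none. Of 129 in replicate 2, these numbers were 59, 59 and 11. The private alleles of the other libraries ran from 1 in CD105 to 163 in CD24_CD29 in replicate 1, with a median of 33, and from 7 in CD105 to 2373 in Thy in replicate 2, with a median of 76. CD45 had fewer than most, ranking 7th and 6th of 8, and the difference did not pass the test (exact permutation p = 0.219, adjusted 0.502).

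**Figure D3:**
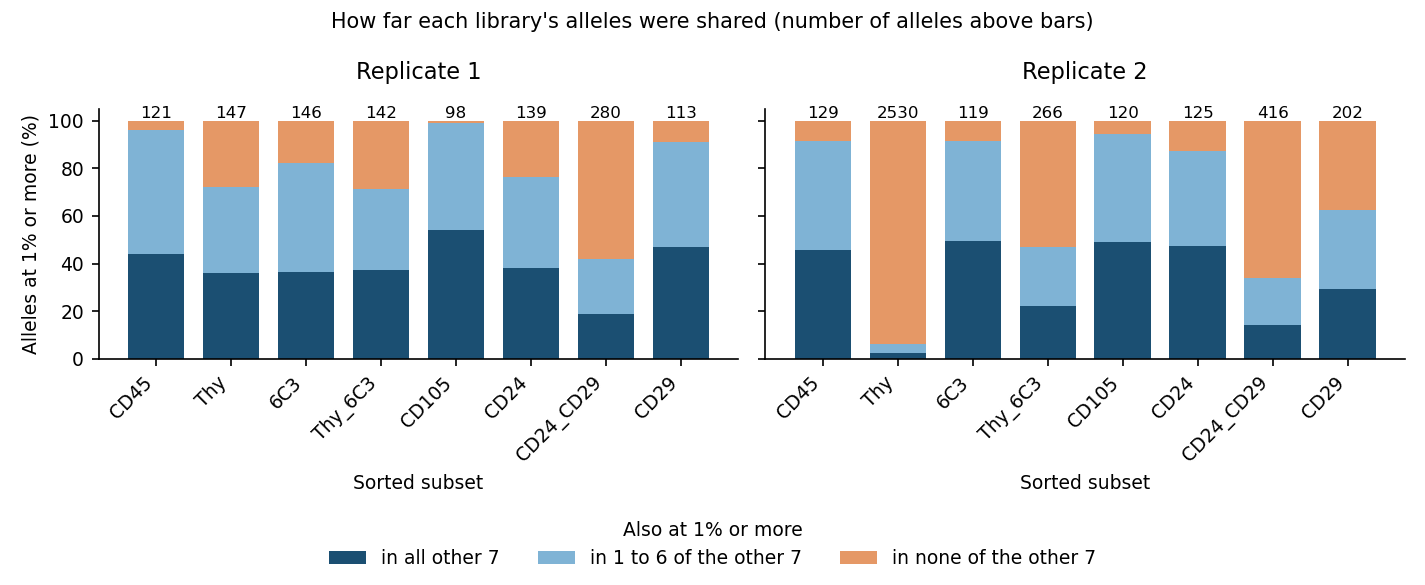
Percent of each library's counted alleles that were also counted in all, in 1 to 6 or in none of the other 7 libraries of its replicate number, as stacked bars from 0, with the number of counted alleles above each bar. CD45 has 4.13% and 8.53% in none, and Thy replicate 2 has 93.8%.

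The private alleles of CD45 were close to the counting threshold and were present at lower fractions in other libraries of the number. By definition such an allele is highest in CD45 of its number, so the ratios and intervals below are a description. In the other number some reached 1% outside CD45. T9246G was at 2.85% and T11865G at 2.74% in Thy replicate 2, and C3869T at 1.37% in Thy replicate 1. C7533T and T9206C stayed under 1% there, with highest values of 0.828% and 0.499%. In replicate 1 the 5 ran from 1.0% to 1.14% in CD45, and the next highest library from 0.498% to 0.972%. In replicate 2 the 11 ran from 1.01% to 1.44%, and the next highest library from 0.527% to 0.937%. A ratio of 2 or more to the next library was reached by 1 allele in each number, C7533T and T9206C, a synonymous change in COX3. C7533T was 2.21 times its next library and T9206C 2.21 times. The private alleles of replicate 1 were T9246G (F214V in COX3), C7533T, A9443G in TrnG, T11865G (F42V in ND5) and T16155A in the control region. T9246G was at 1.14% in CD45 and 0.843% to 0.967% in the others, all below the 95% exact interval of CD45, 1.02% to 1.28%. In replicate 2 T9246G was at 0.949% in CD45, inside the 0.685% to 2.85% of the others. T16155A had 0.815% to 0.972% in the others, and its interval in CD45, 0.859% to 1.16%, covered the highest of them.

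In replicate 2 the private alleles were led by T15014C. C14248T (S35F in CYTB) followed at 1.21%, with 0.0134% to 0.695% in the others, then T9206C at 1.17%, with 0.128% to 0.527%, and C2929T at 1.12%, with 0.116% to 0.667%. A6046G (H240R in COX1) was at 1.09%, with 0.0152% to 0.665% in the others. The remaining 6 were A5999G and A5866T in COX1, T7293A in COX2, T1114C in mt-Rnr2, T760A in mt-Rnr1 and C3869T in TrnM, the methionine transfer RNA gene, at 1.01% to 1.08%. Transitions made up 2 of the 5 and 8 of the 11. Around the threshold, CD45 replicate 1 held 26 alleles from 1% to 1.1% and 27 from 0.9% to 1%, and CD45 replicate 2 held 20 and 28.

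**Figure D4:**
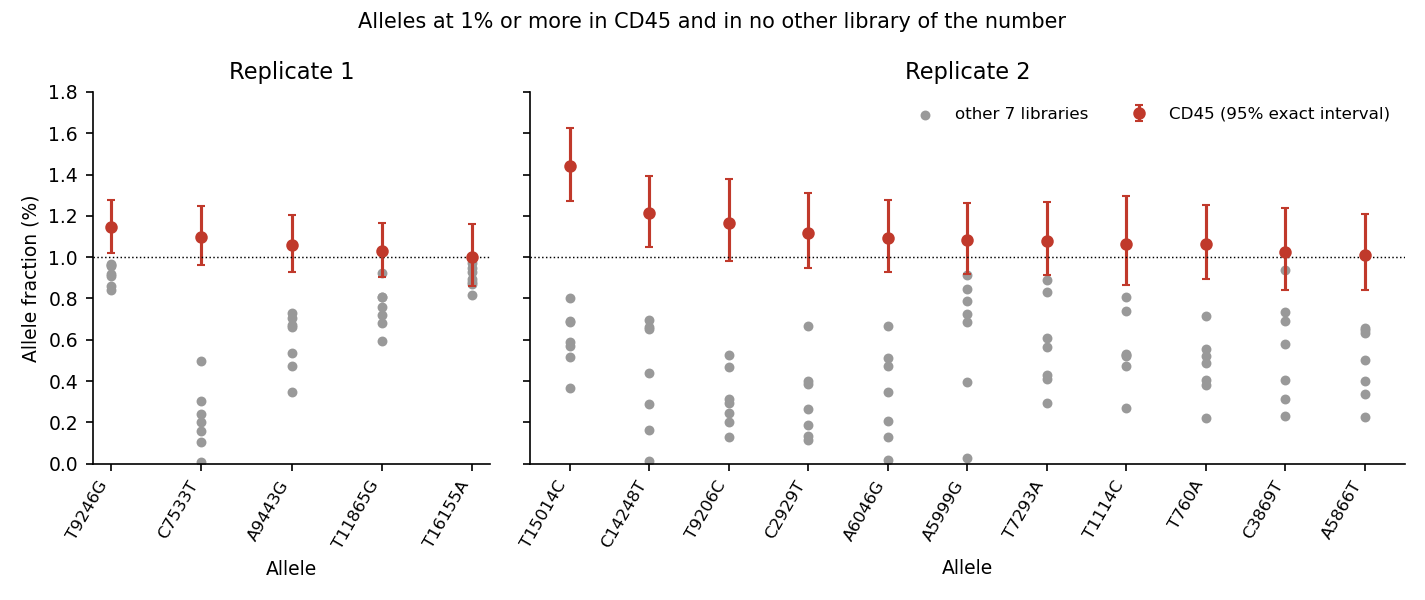
Allele fraction (%) of the private alleles of CD45, with CD45 in red with 95% exact intervals, the other 7 libraries of the number in grey, and the 1% threshold dotted. All are within 1.44%, and most have grey points not far below the threshold.

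Among the other subsets, CD45 was nearest to CD105 in replicate 1 and to 6C3 in replicate 2. Over alleles counted in at least 2 of the 8 libraries, 173 in replicate 1, the root mean square distance on the arcsine square root scale was 0.0149 from CD105, 0.0213 from 6C3, 0.0233 from CD29, 0.0235 from CD24, 0.0254 from Thy_6C3, 0.0266 from Thy and 0.0291 from CD24_CD29. Over the 217 alleles of replicate 2 it was 0.0179 from 6C3, 0.0219 from CD24, 0.0252 from CD105, 0.0266 from CD29, 0.0305 from Thy_6C3, 0.0318 from Thy and 0.0379 from CD24_CD29. In both numbers Thy_6C3, Thy and CD24_CD29 were the 3 farthest, in that order, while the order of the nearest changed. With all alleles counted in any library, the nearest were again CD105, at 0.0128, and 6C3, at 0.0102, and the farthest were CD24_CD29 in replicate 1, at 0.0477, and Thy in replicate 2, at 0.0624. CD24_CD29 was the shallowest library of both numbers, and the part of depth in these distances was not tested. Over widespread alleles, CD24_CD29 was also the farthest from the mean of its other 7 libraries, at 0.0295 and 0.0309. In replicate 1 CD105 was the nearest to that mean, at 0.0107, while 6C3 in replicate 2 ranked 5th from the most distant, at 0.0172. Whether the order of the subsets is particular to CD45 was not tested.

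**Figure D5:**
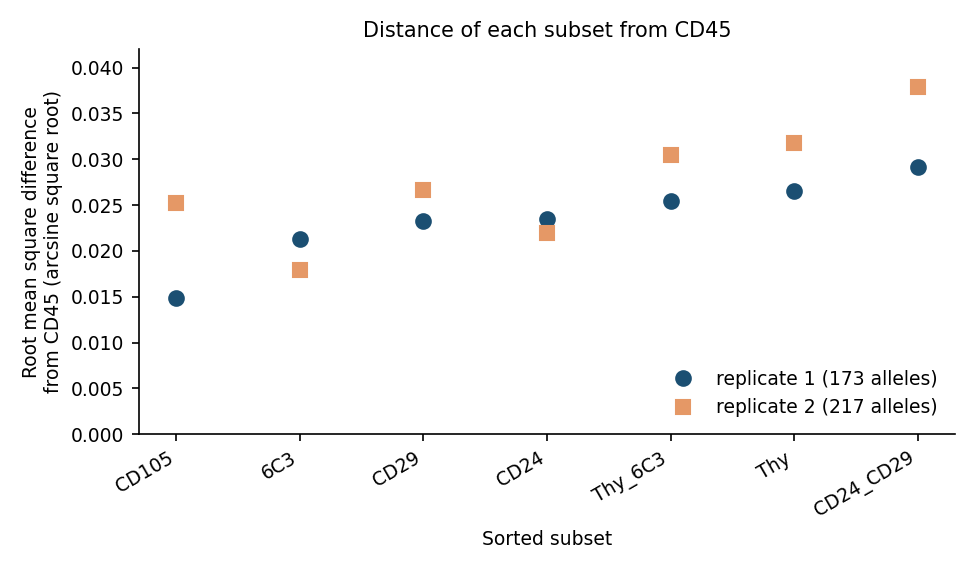
Root mean square difference of arcsine square root allele fractions between CD45 and each other subset (vertical, from 0), with replicate 1 as circles and replicate 2 as squares, over alleles counted in at least 2 of the 8 libraries of the number. CD24_CD29 is the farthest in both, and CD105 and 6C3 are the nearest in replicates 1 and 2.

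As a share of lists, the order was not that of the distances. CD45 and CD105 had 86 counted alleles in common in replicate 1, 71.1% of those of CD45 and 87.8% of those of CD105. With 6C3 in replicate 2, CD45 had 93 in common, 72.1% of its own and 78.2% of those of 6C3. The largest shares of the CD45 alleles were in common with 6C3 in replicate 1, 92 alleles or 76.0%, and with Thy in replicate 2, 102 alleles or 79.1%. The latter are 4.03% of the 2530 alleles of Thy. With CD24_CD29 the numbers were 90 and 83, 74.4% and 64.3% of CD45 alleles but 32.1% and 20.0% of CD24_CD29 alleles.

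The overall load in CD45 was within the range of the skeletal subsets. The mutation load, the summed non-reference fraction averaged over positions, sequencing errors included, was 0.445% and 0.418% in CD45. The other 7 had a mean of 0.450% ± 0.0261 (SD, n = 7) in replicate 1 and 0.537% ± 0.256 in replicate 2, where their median was 0.457%. The load from counted alleles was 0.0185% and 0.0181% in CD45, against medians of 0.0196% and 0.0236%. Neither difference passed the test (exact permutation p = 0.391 and 0.281, both 0.502 after adjustment). The number of counted alleles in CD45, 121 and 129, was within the 98 to 280 and 119 to 2530 of the others (exact permutation p = 0.313, adjusted 0.502).

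The share of transitions in CD45 was within the range of the others. Transitions made up 55.4% and 58.1% of the counted alleles of CD45, against medians of 55.8% and 59.8% in the others (exact permutation p = 0.922, adjusted 1). C>T was the most frequent change in CD45 replicate 1, with 25 of 121 alleles, followed by T>C with 19 and A>G with 16. In CD45 replicate 2, T>C had 25, C>T 24 and A>G 21 of 129. G>C was counted in 0 alleles of both CD45 libraries. The T>A share of counted alleles, singled out after its values were seen, was 10.7% and 10.9% in CD45, above the 7.53% to 10.6% and 2.89% to 9.6% of the others. The T>G share of CD45 was above all others in replicate 1, at 7.44%, and inside their range in replicate 2, at 5.43%. These shares rest on 13 and 14 T>A alleles and on 9 and 7 T>G alleles. By number CD45 did not have the most T>A alleles. The most were 22 of 280 counted alleles in CD24_CD29 replicate 1 and 73 of 2530 in Thy replicate 2. The mean fraction of G>A was 9.15 per 10000 in CD45 replicate 1, inside the range of the others, and 7.51 in CD45 replicate 2, below their lowest value of 7.59. Of the mean fractions of the 12 base changes, 0 differed between CD45 and the others (adjusted exact permutation p = 0.813 for each), with 0 of the 12 at an unadjusted exact permutation p under 0.05.

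By the genes they fall in, complex I held 41 of 121 and 45 of 129 counted alleles of CD45, and the control region 28 and 27. Complex IV, which passes electrons to oxygen, held 14 and 16, complex III 4 and 9, ATP synthase 10 and 7, ribosomal RNA genes 10 and 13 and transfer RNA genes 14 and 12. The transition fraction per position, tested in 17 genes or regions, differed in 0 of them (adjusted exact permutation p = 0.859 for each), with 0 at an unadjusted exact permutation p under 0.05. ND6 had 13.5 and 13.5 transitions per 10000 bases in CD45, against means of 14.4 and 15.8 in the others. The control region had 6.46 and 5.66, against 6.60 and 6.82.

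Of the counted alleles in protein genes, 66.7% and 72.7% changed the protein in CD45, against means of 65.7% ± 5.67 and 73.9% ± 4.98 (SD, n = 7) in the others (exact permutation p = 1, adjusted 1). New stop codons reached the threshold in CD45 as well. G9775A ends ND3, a complex I subunit, at its codon W106 and was at 2.29% in CD45 replicate 1, with 1.66% to 2.69% in the others. G9526A ends ND3 early, at W23, and was at 3.00% in CD45 replicate 2, with 1.56% to 4.39% in the others. Both were counted in all the other 7 libraries, and CD45 lay inside their range. T4377A, which stops ND2 at L155, was at 1.09% in CD45 replicate 1 and was counted in 1 other library. A13380T, which stops ND5 at K547, was at 1.14% and was counted in 5 others, with 0.934% to 3.75% in all 7.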

How the data were processed

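Bulk ATAC-seq libraries of 8 sorted subsets (2 per subset) were analysed from tables of whole-number counts deposited by the authors, not normalized: coverage at each of 16299 mitochondrial positions, and counts of the 3 non-reference bases there. The submitters' processing notes name bcl2fastq 2.20, cutadapt 2.10 and BWA 0.7.17, with the builds GRCm38 and mm10. What was done about base quality, duplicate reads and nuclear copies of this genome is not given in the sources used here, and each can change a low fraction.

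Genes and codons came from RefSeq (GRCm38.p6) and the vertebrate mitochondrial code, and sequences from the reference bases in the deposited tables. Alleles counted in at least 1 library (1% or more, at least 5 counts), 3487 in all, were tested with edgeR 4.0.16 (R 4.3.3; quasi-likelihood, non-reference and reference counts as paired columns, terms for library, subset and replicate number, 7 residual degrees of freedom) and with DESeq2 1.42.0 as alternative, after a test on simulated data. Library measures were compared by exact permutation over 64 assignments, with zero counts replaced by 0.5 counts in log ratios. The software was Python 3.11.15 with pandas 2.3.3, numpy 2.4.6, matplotlib 3.10.9 and scipy 1.17.1.

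Replicate numbers from the titles were kept as a block: deviations from subset means correlated at 0.812 to 0.955 in all 28 pairs of subsets. Named alleles were the 8 highest of each CD45 library, the 5 with the smallest p, the private ones, those in all the other 7 libraries but not in CD45, the 5 most different of those outside the range in both numbers in each direction, and the highest of each gene. Other names, among them the widespread alleles outside the range, the control-region alleles and the stop codons, were chosen after their values were seen. The members, lists and tests were chosen with earlier results of these data known. Alternatives covered thresholds, block, tool, summary and left-out libraries.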

Additional observations from a re-analysis of the deposited data

How the results depend on the processing

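edgeR called 0 alleles under every alternative run: no replicate block, DESeq2, no fraction filter, thresholds of 0.5% and 2%, alleles in at least 2 libraries, without Thy, and each of the 16 libraries left out. Another normalization was not run, since the term per library takes up depth. Without the replicate block the level difference was 0.11 (exact permutation p = 0.0167), and the block changed no call.

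The level of widespread alleles kept its direction in all settings. Its unadjusted exact permutation p was over 0.05 at a threshold of 0.5% (difference 0.022), with transitions only (0.085) and without control-region alleles (0.048), the latter 2 chosen after the values were seen. Leaving out single libraries gave 0.069 to 0.15, and the exact permutation p passed 0.05 without CD24_CD29 replicate 2 (0.0536) and without either CD45 library, where it cannot fall below 0.125. No adjusted p over the 9 measures was under 0.05 in any setting.

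Differences near 0 changed sign. For the transition share these were 0.071 percentage points at 0.5% and 2.25 at 2%, with single libraries left out from -4.80 to 4.21. For the protein-changing share they were 4.31 at 2%, 1.13 without Thy and 0.421 against the median of the other 7, with single libraries left out from -1.21 to 0.981. Without Thy, the mean fractions of A>C and T>G, lower in CD45 with it, were 0.345 and 0.270 per 10000 higher, and alleles below all others in both numbers were 12 of 1098 tested (1.09%), in place of 24 of 3487 (0.688%). The cause was not tested. Depth limits fractions under 0.0118% and 0.0215% in the CD45 libraries.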

Other observations

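Relative coverage at the end of the numbered mitochondrial sequence was higher in the CD45 libraries than in the others, a value noticed after the data were seen and given here without a test. At the last position, 16299, within the control region, coverage over the library's mean was 0.498 in CD45 replicate 1 and 0.513 in CD45 replicate 2. The other libraries ran from 0.347 in CD24_CD29 to 0.400 in Thy_6C3 in replicate 1, and from 0.364 in CD24_CD29 to 0.388 in Thy_6C3 in replicate 2, so both CD45 libraries lay above all others. At the first position the CD45 values, 0.551 and 0.575, lay inside the range of the others, and so did the coefficient of variation of coverage along the genome, 0.234 and 0.250. The part of this coverage in the control-region fractions of CD45 was not tested.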
